A study of Mus musculus with 16 samples.

Results

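The 8 genes described here are Zhx1, Zhx2 and Zhx3, the whole mouse Zhx family, and H19, Afp, Gpc3, Lpl and Elovl3, liver genes known or observed to go with Zhx2. They were found by symbol among the 30199 genes of the deposited table, and all 8 passed the filter for testing, a mean of at least 10 normalized counts. The values that chose them came from these same livers, so how they go with Zhx2 is given by liver and by order, with no test.

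The study took liver from 16 female mice aged 5 months, 4 of each of 4 genotypes, to profile polyadenylated RNA after heterozygous loss of Ncoa5, of Tip30 or of both. Ncoa5 encodes a nuclear receptor coactivator, and Tip30 is another name for Htatip2. The wild-type mice were Ncoa5+/+Tip30+/+, the Ncoa5+/- mice Ncoa5+/-Tip30+/+, the Tip30+/- mice Ncoa5+/+Tip30+/-, and the double heterozygotes Ncoa5+/-Tip30+/-. Every mouse kept at least 1 wild-type copy of each gene, and all were fed standard rodent diet. The sources used here do not give the mouse strain or the deleted parts of both genes. Mice are numbered within a genotype in accession order, which pairs nothing.

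Zhx proteins are nuclear proteins with zinc fingers and several homeodomains that act mainly as transcriptional repressors and bind one another and the CCAAT-box factor NF-Y. Zhx2 was found as the gene behind a mouse strain difference in liver Afp after birth: strains with a weak Zhx2 allele keep more Afp and H19 RNA in the adult liver. Gpc3 and Lpl, also active in the fetal liver, have been placed among its targets.

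Between 24740706 and 37939978 reads were assigned to genes in each library, and 21686 to 24142 genes had a value above 0. Values below are counts divided by the authors' size factor for each library, called normalized counts. All 10 hepatocyte markers, such as Alb and Ttr, were above 0 in every library. Htatip2 was at 37.6% of wild type in Tip30+/- livers (limma adjusted p = 5.88e-05) and at 47.4% in double heterozygotes (adjusted p = 0.000231). Ncoa5 was at 89.5% of wild type in the livers labelled Ncoa5+/- (adjusted p = 0.658) and at 92.1% in those labelled Ncoa5+/-Tip30+/- (adjusted p = 0.527), so its reads do not check those labels. In whole liver, fewer cells of a type and less RNA per cell cannot be told apart.

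Zhx2 (chr15:57694665-57839832 of GRCm38, plus strand) split the livers into a low set and a high set, and the split ran through genotypes. The wild-type livers held 19.4, 26.3, 438 and 204 normalized counts, and the Ncoa5+/- livers 13.5, 238, 207 and 8.77. The Tip30+/- livers held 431, 405, 271 and 273, and the double heterozygotes 420, 167, 227 and 242. Wild-type livers 1 and 2 and Ncoa5+/- livers 1 and 4 were thus far below the other 12. These 4 livers stood at 3.77% to 11.3% of the median of all 16, which was 233, and the lowest of the other 12 at 71.6%. The low values rest on 19, 25, 12 and 9 reads. A liver was called low in Zhx2 where it was under a share of 0.5 of that median, and no liver lay between 26.3 and 167. Of the low livers, 3 carried the neighbouring mouse tags 4251, 4252 and 4253 and the fourth carried 4383. The Ncoa5+/- liver with tag 4254 held 238. The sources used here do not say what the tags stand for, so a shared litter, cage or batch cannot be told apart from the Zhx2 level.

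**Figure D1:**
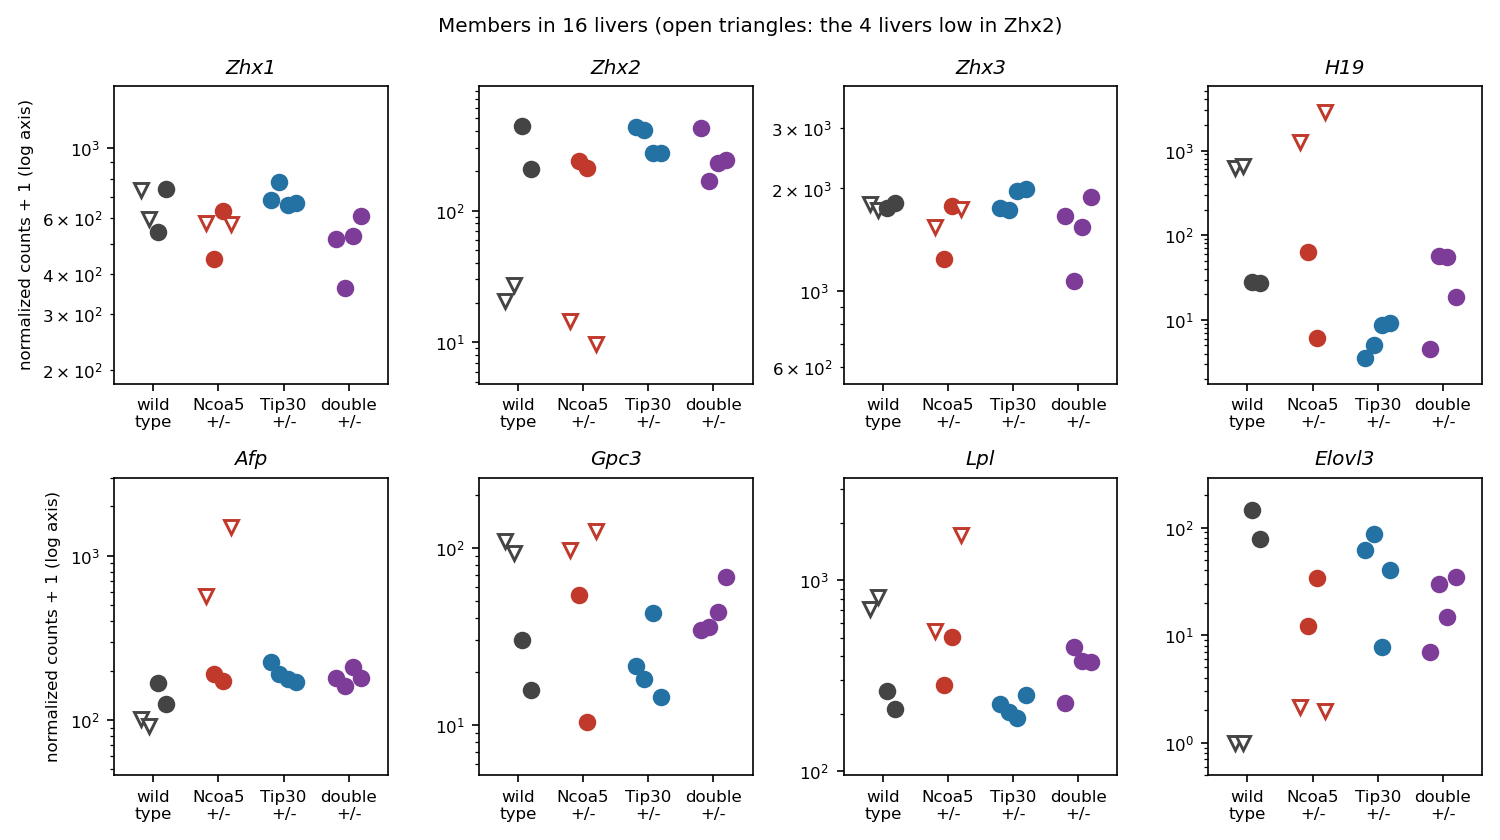
Normalized counts (plus 1, log axis) of the 8 genes in each liver by genotype, 1 point for each mouse. Open triangles are the 4 livers low in Zhx2, 2 of them wild type and 2 Ncoa5+/-, and filled points the other 12. The triangles lie apart from the filled points for Zhx2, H19, Gpc3, Lpl and Elovl3, and among or to both sides of them for Zhx1, Zhx3 and Afp.

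Zhx1 and Zhx3 did not split as Zhx2 did. Zhx1 (chr15:58047003-58076541, minus strand) lies 207 kb from Zhx2 on the same chromosome. It held 735, 597, 543 and 741 normalized counts in wild-type livers and 579, 446, 633 and 574 in Ncoa5+/- livers. It held 685, 780, 660 and 668 in Tip30+/- livers and 516, 362, 528 and 611 in double heterozygotes. The 4 livers low in Zhx2, at 574 to 735, lay inside the range of the others, 362 to 780. Zhx3 (chr2:160748708-160872998, minus strand) was between 1542 and 1795 in the low livers and between 1072 and 1995 in the others. Its wild-type values lay close together, at 1795, 1725, 1753 and 1817. Double heterozygote 2 had the lowest value of both genes, 362 for Zhx1 and 1072 for Zhx3, and Ncoa5+/- liver 2 the next lowest of both, at 446 and 1242. Per kb of exon, Zhx3 had a median level of 131 normalized counts over all livers, Zhx1 100 and Zhx2 52.5. The highest Zhx1 value was 2.15 times the lowest and the highest Zhx3 value 1.86 times the lowest, where for Zhx2 it was 49.98 times. Zhx1 shares 11.0% of its exon bases with Gm29394 on the same strand, a gene with a mean of 0.368 normalized counts. Zhx3 shares 2.86% of its exon bases with Plcg1 on the other strand, which had a mean of 1078, and no strand marking is stated for these libraries, so some Zhx3 reads may be of Plcg1.

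H19 is an imprinted long non-coding RNA of fetal tissues (chr7:142575529-142578143, minus strand) whose exon holds the hairpin of miR-675. The mature miRNAs are shown because they are the part of the RNA with a sequence-defined product. The libraries measured the host RNA and not these products. Sequences are from RefSeq, build GRCm38.p6, minus strand, 5′ to 3′, with the seed (bases 2 to 8) in capitals, and the 2 arms share no seed.
mmu-miR-675-5p (chr7:142577112-142577133): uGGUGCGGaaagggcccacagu
mmu-miR-675-3p (chr7:142577078-142577099): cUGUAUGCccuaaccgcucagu

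H19 had the widest range of the 7 genes with a value above 0 in every liver, its highest value being 1128 times its lowest. The lowest value rests on 3 reads, so this ratio is uncertain. The wild-type livers held 615, 648, 27.1 and 26.7 normalized counts and the Ncoa5+/- livers 1267, 62.1, 5.21 and 2885. The Tip30+/- livers held 2.56, 4.02, 7.78 and 8.19 and the double heterozygotes 3.57, 56.4, 53.7 and 17.5. All 4 livers low in Zhx2 were above the other 12, and the lowest of the 4 was 9.90 times the highest of the 12. Per kb of exon the highest liver reached 1173 normalized counts, against a median of 5.23 over the 12. Igf2, the growth factor gene that shares control elements with H19 in the fetus, held 0 to 7.79 normalized counts in the 4 low livers and 0 to 1.03 in the others.

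Gpc3 encodes a glypican, a heparan sulfate proteoglycan held at the cell surface by a lipid anchor (chrX:52272426-52613950, minus strand). It held 109, 92.5, 29.0 and 14.6 normalized counts in wild-type livers and 96.9, 53.0, 9.37 and 125 in Ncoa5+/- livers. It held 20.5, 17.1, 41.8 and 13.3 in Tip30+/- livers and 33.3, 34.8, 42.5 and 68.1 in double heterozygotes. The 4 livers low in Zhx2 were again the highest, but the lowest of them was only 1.36 times the highest of the others. Lpl encodes lipoprotein lipase, which frees fatty acids from the triglyceride of circulating lipoproteins (chr8:68880491-68907448, plus strand). Its wild-type livers held 704, 817, 261 and 211 and its Ncoa5+/- livers 543, 281, 506 and 1731. The Tip30+/- livers held 224, 203, 190 and 250, and the double heterozygotes 225, 444, 378 and 372. The low livers were all above the rest by a narrow margin, since the lowest, Ncoa5+/- liver 1 at 543, was 1.07 times the highest of the others, Ncoa5+/- liver 3 at 506.

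Elovl3 encodes an enzyme that lengthens long-chain fatty acids (chr19:46131897-46135694, plus strand), and it went the other way. The wild-type livers held 0, 0, 145 and 76.5 normalized counts and the Ncoa5+/- livers 1.13, 11.2, 33.3 and 0.974. The Tip30+/- livers held 61.4, 86.4, 6.81 and 38.9 and the double heterozygotes 5.95, 29.2, 13.9 and 34.0. The 4 livers low in Zhx2 had 0, 0, 1 and 1 reads, and the other 12 had 5 to 155. A count of 0 allows up to 3 reads, or 3.07 and 3.15 normalized counts in the 2 wild-type livers at 0, by counting error only. Among the 12 it ran from 5.95 to 145, so Elovl3 also varied widely where Zhx2 was high.

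Afp, the main serum protein of the fetal liver and yolk sac (chr5:90490737-90508907, plus strand), followed neither the order of H19 nor that of Elovl3. The wild-type livers held 100, 91.5, 168 and 124 normalized counts and the Ncoa5+/- livers 567, 190, 172 and 1501. The Tip30+/- livers held 225, 191, 177 and 169 and the double heterozygotes 180, 161, 210 and 180. Of the livers low in Zhx2, the wild-type pair had the 2 lowest Afp values of all 16 and the Ncoa5+/- pair the 2 highest. In the 2 low wild-type livers H19 was thus 615 and 648 while Afp was 100 and 91.5. Per kb of exon the median Afp level over all livers was 53.0 normalized counts, near that of Zhx2 and above those of Lpl (31.2), Gpc3 (14.2), H19 (10.9) and Elovl3 (10.9).

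The promoters of Afp and Gpc3 are printed because their transcripts differ in order across the low livers. Each is the 250 bases before and 50 after the RefSeq start, build GRCm38.p6, 5′ to 3′ on the gene's strand, with matches to 4 short motifs on either strand in capitals. The letters searched were TATAAA for the TATA box and CCAAT for the CCAAT box. They were GTTAAT for part of the motif of the hepatocyte factor HNF1 and GGGCGG for the GC box. Of the 8 genes, 3 had an entry, the other being Zhx3.
Afp (chr5:90490464-90490763): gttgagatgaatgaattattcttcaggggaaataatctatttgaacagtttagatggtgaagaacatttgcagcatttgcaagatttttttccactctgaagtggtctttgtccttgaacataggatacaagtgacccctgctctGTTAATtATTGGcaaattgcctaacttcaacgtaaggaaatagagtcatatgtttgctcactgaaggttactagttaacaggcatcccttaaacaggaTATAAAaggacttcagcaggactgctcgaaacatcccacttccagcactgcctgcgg
Gpc3 (chrX:52613925-52614224): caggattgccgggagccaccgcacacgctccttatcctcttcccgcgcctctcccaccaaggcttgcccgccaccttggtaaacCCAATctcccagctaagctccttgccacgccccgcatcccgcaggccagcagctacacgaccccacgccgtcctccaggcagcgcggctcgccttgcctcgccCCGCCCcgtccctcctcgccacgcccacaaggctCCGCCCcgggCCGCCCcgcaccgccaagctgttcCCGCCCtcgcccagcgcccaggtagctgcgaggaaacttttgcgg

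Both windows held a CCAAT box, on the opposite strand in Afp and on the gene's strand in Gpc3, as did 37.4% of 32851 mouse promoters of this length. The Afp window also held a TATA box, found in 13.6% of promoters, and the HNF1 letters, found in 7.10%, and none of the matches in either window overlapped. The Gpc3 window held 4 GC boxes, all on the opposite strand, and 35.7% of promoters held at least 1. GC content was 40.0% for Afp and 70.7% for Gpc3, against a median of 52.7%. These are matches of letters and not measured binding sites.

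Across the 8 genes, 3 were above (H19, Gpc3, Lpl) and 2 below (Zhx2, Elovl3) in all 4 low livers relative to the other 12. Over all 15263 genes tested, 1.11% were above in this way and 0.95% below, 2.06% in either direction. Nothing is read from this, since the genes were picked from these values. Within the 12 livers the order by Zhx2 was looser. The 3 lowest H19 values, 2.56, 3.57 and 4.02 normalized counts, belonged to livers with Zhx2 of 431, 420 and 405. These H19 values rest on 3, 3 and 4 reads, so counting error alone could change their order. Wild-type liver 3, with the highest Zhx2 value at 438, held 27.1 of H19. Ncoa5+/- liver 3, with 207 of Zhx2, held 5.21, or 5 reads. Elovl3 was highest in wild-type liver 3, at 145, but lowest of the 12 in double heterozygote 1, at 5.95, although their Zhx2 values were 438 and 420. Afp ranged only from 124 to 225 over the 12.

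**Figure D2:**
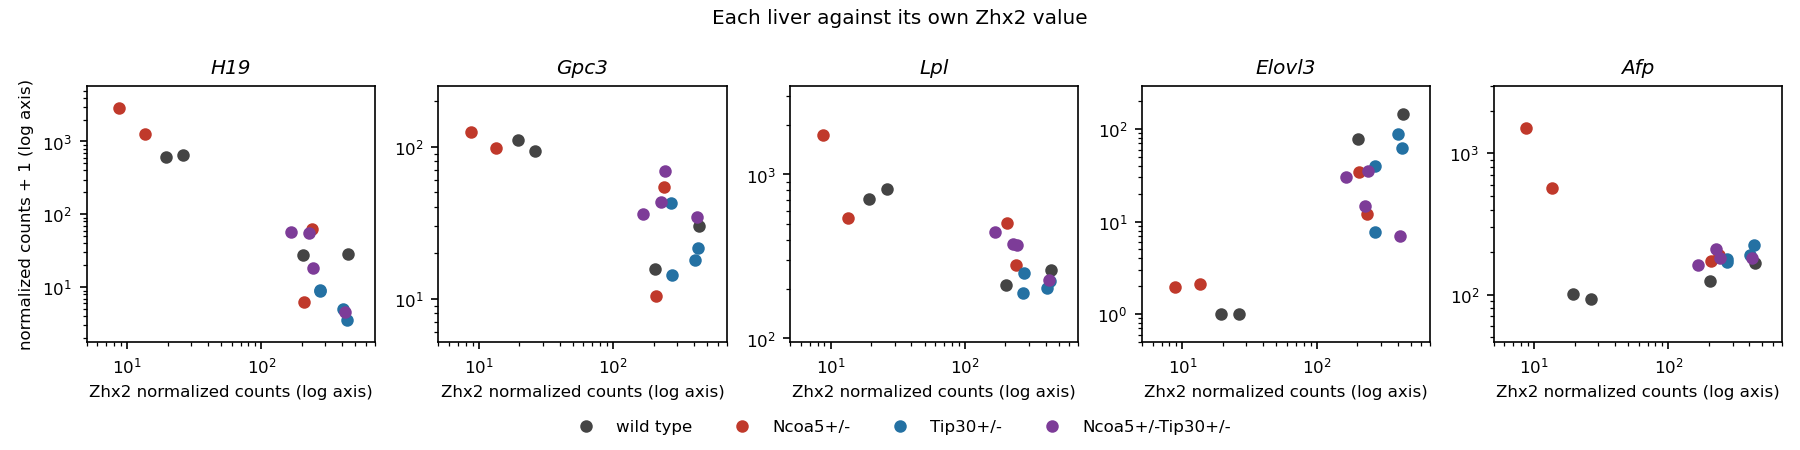
Normalized counts (plus 1) of H19, Gpc3, Lpl, Elovl3 and Afp against the normalized counts of Zhx2 in the same liver, both axes log, 1 point for each of 16 livers, coloured by genotype. The 4 livers at the left are low in Zhx2 and hold H19 between 615 and 2885 and Elovl3 at 0 to 1.13. The 12 livers at the right span Zhx2 from 167 to 438 and hold H19 between 2.56 and 62.1.

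The comparison with wild type asked whether loss of 1 copy of Ncoa5, of Tip30 or of both changed these genes. None of the 8 passed at an adjusted p below 0.05 in limma, which was fitted over all genes, in any of the 3 comparisons or in the interaction. Over all genes, 0.557% passed for Ncoa5+/- against wild type, 0.0131% for Tip30+/-, 2.67% for the double heterozygotes and 0% for the interaction. The values of a genotype did not overlap those of wild type for 1 of the 8 genes in Ncoa5+/- (Afp; 5.67% of all genes), 2 in Tip30+/- (Afp and H19; 4.44%) and 0 in double heterozygotes (10.7%). At an unadjusted p under 0.05, 1 of the 8 genes was found in each (Afp for Ncoa5+/-, H19 for Tip30+/-, Zhx1 for the double heterozygotes and Afp for the interaction). Over all genes that share was 10.2%, 7.34%, 22.0% and 4.26%. edgeR called 0 of the 8 in each as well, and of all genes 0.531%, 0.0131%, 2.4% and 0%. DESeq2 called Afp in the first and H19 in the second and 0 of the 8 in the others, and of all genes 1.68%, 0.282%, 6.84% and 0.00655%.

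Zhx2 itself averaged 172 ± 197 (SD, n = 4) in wild-type livers, 117 ± 123 in Ncoa5+/-, 345 ± 84.9 in Tip30+/- and 264 ± 109 in double heterozygotes. In order of mean the genotypes ran Tip30+/-, double heterozygote, wild type and Ncoa5+/-, and neighbours in that order overlapped. The fitted log2 difference from wild type was -0.71 in Ncoa5+/- livers, with a 95% interval of -3.21 to 1.80. In Tip30+/- livers it was 2.01 (interval -0.50 to 4.51) and in double heterozygotes 1.57 (interval -0.93 to 4.08). Without the low livers these differences were -0.43, 0.17 and -0.26. Those livers were left out for their own low Zhx2 values, 2 of them wild type. A lower difference for Tip30+/- and double heterozygous livers thus followed from the rule, and nothing is read from it. With all livers DESeq2 gave 1.003 for Tip30+/- and 0.63 for double heterozygotes. Intervals this wide exclude neither no difference nor a large one. No liver of the Tip30+/- or double heterozygous mice was low in Zhx2.

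Afp was higher in all 4 Ncoa5+/- livers, 172 to 1501, than in every wild-type liver, 91.5 to 168. The log2 difference was 1.79 ± 0.51 (SE), with a limma adjusted p of 0.179 and an exact 2-sided permutation p of 0.0286, the smallest that 4 against 4 mice can give. Such separation in the higher direction was found for 3.25% of all genes in this comparison. DESeq2 called Afp (log2 2.34, adjusted p = 0.00254) and edgeR did not (2.33, adjusted p = 0.0935). Leaving out the 4 livers low in Zhx2 left 2 mice of each of these genotypes. Those 4 held the 2 lowest Afp values, both wild type, and the 2 highest, both Ncoa5+/-. Smaller Afp differences without them, here and below, thus follow from their removal, and nothing is read from them. The log2 difference was then 0.33 (limma adjusted p = 0.642). With Zhx2 as a covariate over all livers it was 1.63 (adjusted p = 0.178). Afp was also higher without overlap in Tip30+/- livers, 169 to 225, with a log2 difference of 0.68 ± 0.51, a limma adjusted p of 0.807 and an exact permutation p of 0.0286, and 2% of genes were separated this way. Without the low livers that difference was 0.39 (limma adjusted p = 0.930). Double heterozygotes held 161 to 210, which overlapped wild type (log2 0.63 ± 0.51, limma adjusted p = 0.493, and 0.33 without the low livers). In all, 11 of the 12 heterozygous livers were above every wild-type liver, some by little, as the lowest Tip30+/- liver at 169. The share of all genes with such a count was not taken, so nothing is read from it. The interaction of both deletions for Afp was -1.85 ± 0.72 on the log2 scale, with an unadjusted p of 0.0223 and an adjusted p of 0.950 in limma. It was -0.38 without the low livers, which again follows from their removal. Leaving out 1 mouse at a time moved the interaction from -2.26 to -1.22, the latter without Ncoa5+/- liver 4.

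H19 was lower in all 4 Tip30+/- livers, 2.56 to 8.19, than in every wild-type liver, 26.7 to 648. The Tip30+/- values rest on 3, 4, 8 and 8 reads, which makes the size of the difference uncertain. The log2 difference was -4.43 ± 1.79, with a limma adjusted p of 0.640 and an exact permutation p of 0.0286, and 2.44% of all genes were lower without overlap in this comparison. DESeq2 called it (log2 -5.87, adjusted p = 0.00719). Without the livers low in Zhx2 the limma difference was -2.18 (adjusted p = 0.963), with the 2 remaining wild-type livers at 27.1 and 26.7. H19 was among the genes chosen for going with Zhx2, so a smaller difference there can follow from the choice. H19 averaged 329 ± 349 in wild-type livers, 1055 ± 1352 in Ncoa5+/- livers, 5.64 ± 2.78 in Tip30+/- livers and 32.8 ± 26.4 in double heterozygotes. In Ncoa5+/- livers the SD was larger than the mean, and the log2 difference of 0.55 ± 1.79 from wild type (limma adjusted p = 0.957) became -0.50 without the low livers.

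Gpc3, Lpl and Elovl3 overlapped wild type in every genotype. For Tip30+/- livers Gpc3 averaged 23.2 ± 12.8 and wild type 61.4 ± 46.6, a log2 difference of -1.09 ± 0.73 (limma adjusted p = 0.794) that was 0.028 without the low livers. Lpl averaged 217 ± 26.3 in Tip30+/- livers and 498 ± 307 in wild type, a log2 difference of -0.97 ± 0.52 (limma adjusted p = 0.729). That difference was -0.12 without the low livers and -0.19 with Zhx2 as a covariate. Gpc3 and Lpl were chosen as known or observed to go with Zhx2, so smaller differences in such fits can follow from the choice. The part of Zhx2 in the genotype differences was not tested. The Lpl values of Tip30+/- livers lay close together, at 190 to 250, against 225 to 444 in double heterozygotes. Elovl3 averaged 20.8 ± 13.1 in double heterozygotes and 55.4 ± 69.8 in wild type. On the log2 scale, where the 2 livers at 0 weigh more, its fitted difference was 0.82 ± 1.61 (limma adjusted p = 0.805) and without the low livers it was -2.55 (adjusted p = 0.207). The mean and the log2 difference thus had opposite signs.

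Zhx1 averaged 504 ± 104 in double heterozygotes and 654 ± 99.7 in wild-type livers, a log2 difference of -0.39 ± 0.15 (limma adjusted p = 0.152, exact permutation p = 0.0857). Its means in Ncoa5+/- livers, 558 ± 79.3, and in Tip30+/- livers, 698 ± 55.7, lay to either side of wild type (limma adjusted p = 0.677 and 0.907). Zhx3 averaged 1773 ± 41.5 in wild-type livers, 1574 ± 244 in Ncoa5+/-, 1861 ± 142 in Tip30+/- and 1543 ± 345 in double heterozygotes, and its largest log2 difference was -0.23 ± 0.15 (limma adjusted p = 0.367). The 95% intervals for Zhx1 and Zhx3 in the 3 comparisons ran from -0.71 to 0.43, so larger changes than that lie outside them.

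**Figure D3:**
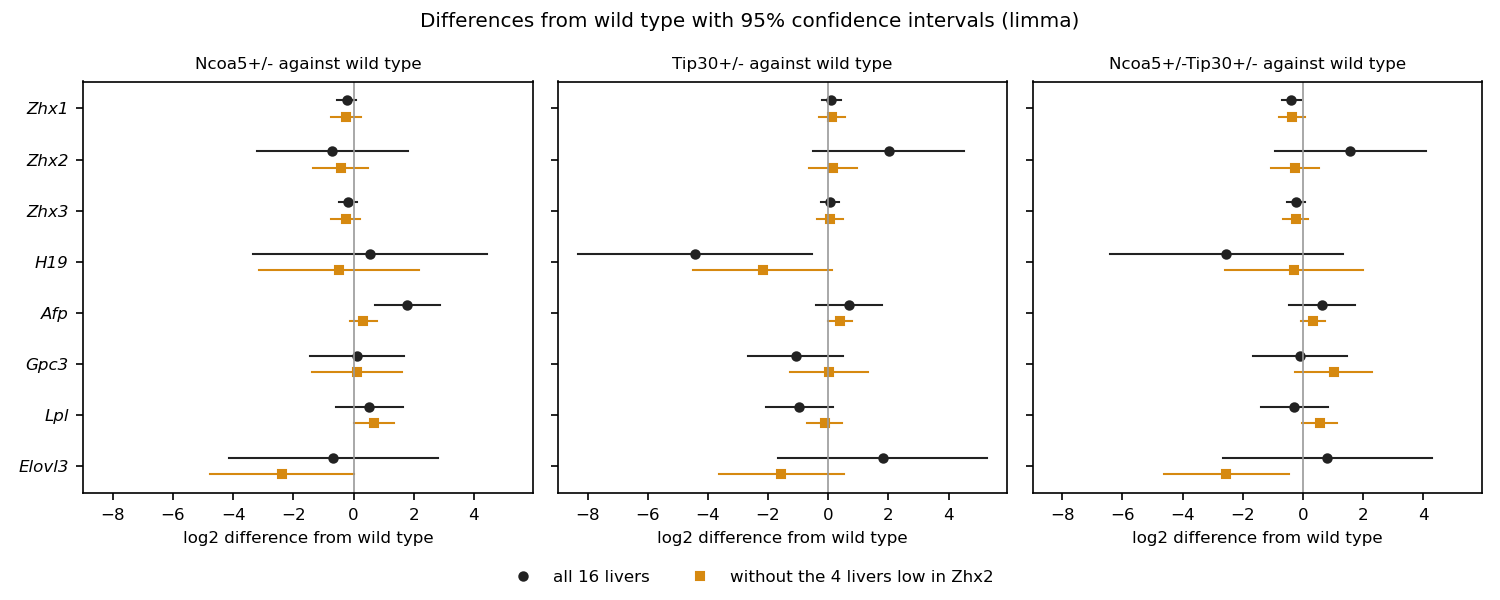
Fitted log2 difference from wild type of each of the 8 genes, 1 panel for each comparison, as points with 95% intervals from limma, over all 16 livers (black circles) and without the 4 livers low in Zhx2 (orange squares). Over all livers the intervals are narrow for Zhx1 and Zhx3 and span several log2 units for Zhx2, H19 and Elovl3. The Afp difference in Ncoa5+/- livers falls from 1.79 to 0.33 without the low livers, which leaves 2 wild-type and 2 Ncoa5+/- livers. The livers left out hold the 2 lowest and the 2 highest Afp values, so nothing is read from the fall.

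Other genes of the pathways around these 8 were not called by genotype in limma. Over all genes 0.557% passed for Ncoa5+/-, 0.0131% for Tip30+/- and 2.67% for double heterozygotes. The lists are short beside such shares, so nothing is read from the absence of calls. DESeq2 and edgeR calls were not taken for these lists. No tested gene passed in any of the 3 comparisons among the imprinted genes of fetal growth (14 tested), the albumin gene cluster (3), the fetal liver and progenitor genes (8), the factors of the Afp and H19 genes (18), the glypicans (3), the lipoprotein lipase pathway (19), the fatty acid elongation and desaturation enzymes (13), the neighbours of Zhx2 on its chromosome (10) or the genes studied with Zhx2 (7). For Ncoa5+/- against wild type, all 8 fetal liver and progenitor genes were above 0 with a median log2 difference of 0.62, against a median of -0.01 over all genes. In the same comparison all 12 macrophage and Kupffer cell markers and 9 of 9 cholangiocyte markers were above 0 (medians 0.64 and 0.78). So were 9 of 10 lymphocyte markers and 17 of 17 cell cycle genes (medians 0.77 and 0.60). Double heterozygotes also had all 8 fetal liver and progenitor genes above 0 (median 0.49). Above 0 there were 10 of 12 macrophage and Kupffer cell, 8 of 9 cholangiocyte and 10 of 10 lymphocyte markers (medians 0.41, 0.75 and 0.77). Of the cell cycle genes 13 of 17 were (median 0.35). Epcam and Sox9 are in both the fetal and the cholangiocyte list. The part of these genes in the Afp difference was not tested. Of the cell type markers, the T cell gene Cd8a and the cytotoxic lymphocyte gene Nkg7 rose in Ncoa5+/- livers, by 3.20 ± 0.53 and 1.65 ± 0.29 on the log2 scale (limma adjusted p = 0.00517 and 0.0117). Cd8a also rose in double heterozygotes, by 2.97 ± 0.53 (adjusted p = 0.00651), as did the stellate cell gene Hand2 and the cholangiocyte gene Spp1, by 0.81 and 1.20 (adjusted p = 0.0376 and 0.0137). All other markers tested missed the threshold in each comparison.

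The same lists were read by liver, beside the 2.06% of all genes that lay apart in the 4 low livers in either direction. All Tip30+/- and double heterozygous livers are among the other 12, so Zhx2 level and genotype cannot be fully told apart here. Of the 14 imprinted genes 1, Grb10, a growth factor receptor adaptor, was above in all 4 low livers (412 to 901, against 76.2 to 167). Of the 3 glypicans other than Gpc3 1, Gpc1, was below (33.8 to 55.5, against 75.7 to 702), the opposite order to Gpc3. Of 19 genes of the lipoprotein lipase pathway 1, Sel1l, needed for lipase folding in the endoplasmic reticulum, was above (4696 to 5970, against 2749 to 4454). Of 7 genes studied with Zhx2 1, Mup7, a major urinary protein, was below (16.4 to 72.6, against 335 to 6467). Mup genes are near-identical copies, so reads may be split among them. These 4 genes are named after their values were seen. None of the 13 fatty acid elongation and desaturation enzymes lay apart as Elovl3 did, and none of the 10 neighbours of Zhx2 did. The summed level of each list of cell type markers overlapped between the low livers and the others. Macrophage and Kupffer cell markers summed to 12196 to 17630 in the 4 and 5633 to 22666 in the 12. Adipocyte markers, of cells rich in Lpl, summed to 190 to 342 and 157 to 410. Most of that sum was Fabp4 and Cidec, the only 2 of the 7 that passed the filter for testing. Adipoq held at most 5.64 normalized counts in any liver and Plin1 at most 11.6. Within each of these lists no marker put the 4 low livers all above or all below the others.

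Over all 16 livers, the genes among the most like Zhx2 by Pearson r of log2 values, among 10976 genes with a mean of at least 50, were Mup-ps13 (0.97), Ido2 (0.96), Gm2a (0.94) and Sult3a2 (0.94). Ido2, a tryptophan-degrading enzyme, held 632 to 1242 normalized counts in the 4 low livers and 1977 to 3295 in the others. Sult3a2, a sulfotransferase, held 0 to 2.05 and 47.6 to 501. In the opposite direction stood Unc119 (-0.95), Mpp1 (-0.95), Pla1a (-0.95), Prcp (-0.94) and Setd7 (-0.94). Unc119, a lipid-binding trafficking protein, held 549 to 984 in the low livers and 147 to 312 in the others. Within the 12 livers r was 0.80 for Mup-ps13, 0.62 for Ido2, 0.35 for Gm2a and 0.31 for Sult3a2. It was -0.86 for Prcp, -0.72 for Setd7 and -0.66 for Unc119, Mpp1 and Pla1a. Gm2a and Sult3a2 thus fell furthest toward 0 once the low livers were left out. The livers share library preparation and the table's normalization, genotype is partly mixed with the Zhx2 level, and no test was made.

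**Figure D4:**
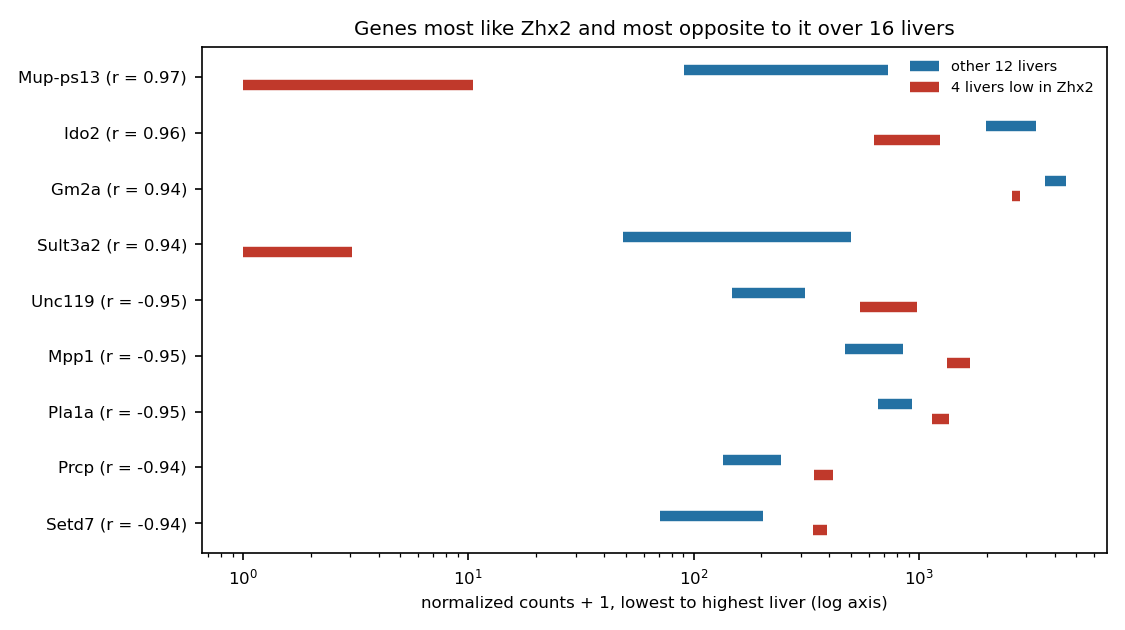
Range of normalized counts (plus 1, log axis) from the lowest to the highest liver for 4 genes with high and 5 with low Pearson r with Zhx2, in the 4 livers low in Zhx2 (red bars) and in the other 12 (blue bars). The red and blue bars do not overlap for any of the 9 genes, a split that picking genes by r over these same livers favours. Ido2, for example, spans 632 to 1242 in the 4 livers and 1977 to 3295 in the 12.

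The genes most like the other members differed between them. H19 went with Rogdi (r = 0.95), Unc119 (0.93) and Pla1a (0.92), of which Unc119 and Pla1a also ran opposite to Zhx2. Elovl3 went with Mup15 (0.94), Mup7 (0.93) and the Polycomb gene Cbx8 (0.93). Gpc3 went with Sulf1 (0.89), an enzyme that trims heparan sulfate, and within the 12 livers that r was 0.92. Igfbp6 (0.85) was also among its closest, with 0.88 within the 12. Lpl went with Rab8b (0.94), Ifi44 (0.92) and Serpina3g (0.91), at 0.93, 0.87 and 0.87 within the 12. Picking genes by r over all 16 livers, which include the 12, favours a high r there, so nothing is read from these values. Afp had no close companion: its highest were the class I histocompatibility gene H2-T23 (0.80), the esterase Iah1 (0.77) and H2-T10 (0.76), with -0.07, 0.14 and 0.27 within the 12. The Mup and H2-T genes have near-identical relatives, so their counts are uncertain.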

How the data were processed

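The deposited table holds, per the labels, counts per gene that the authors normalized with DESeq2 1.28.1 (a signal: each count over its library's size factor), in 16 livers, from oligo(dT)-selected RNA. Per the submitters' processing notes, reads were trimmed with Trimmomatic 0.36 and aligned with STAR 2.6.0c to GRCm38. For the counting program and annotation release, not given in the sources used here, nothing is assumed. In every library 100% of values were whole multiples of 1 step (tolerance 1e-04), which gave whole reads. Gene positions and exon lengths are from GENCODE M21. All libraries differed beyond sampling noise.

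The test was limma 3.58.1 (trend, robust, R 4.3.3) on log2(value + 1) with 4 group means over 16 livers, 2-sided, Benjamini-Hochberg adjusted over 15263 genes with a mean of at least 10. Folds are thus on the log2(value + 1) scale, which understates low genes. P-values set a group difference against the spread between these mice, taken as independent. Whether mice with neighbouring tags are independent is not known from the sources used here. For single genes a 2-sided exact permutation test over 70 arrangements was added. edgeR 4.0.16 and DESeq2 1.42.0 on the recovered reads were alternatives and called 0 and 1 of the 8 genes for Ncoa5+/-, 0 and 1 for Tip30+/-, and 0 and 0 for double heterozygotes. Other alternatives were offsets of 0.5 and 5, filters of none and 50, TMM scaling, mouse tag range (from 4300) and Zhx2 as covariates, the 2 groups alone, leaving out the livers low in Zhx2 and leaving out each mouse. The fit was tested on simulated data.

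The 8 genes, 17 lists and the alternatives were chosen with earlier results of these data known. Genes named are the 8, members of lists by smallest p, Ncoa5 and Htatip2, the 5 genes with the highest and lowest r with Zhx2 and the 3 highest for H19, Afp, Gpc3, Lpl and Elovl3; predicted genes were left out, and 2 genes under the r rule are not reported here. Promoters and miRNAs are from RefSeq (GRCm38.p6).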

Additional observations from a re-analysis of the deposited data

How the results depend on the processing

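Of 668 values of the 8 genes under alternatives, 631 kept their sign. Many of them could not change. Leaving out a mouse of a genotype outside a comparison with wild type returns the main log2 difference, as do the other filters. The count of kept signs is thus no measure of stability. DESeq2 called 1 of the 8 genes for Ncoa5+/- (Afp) and 1 for Tip30+/- (H19), where limma called 0. No value of opposite sign passed the test. For Ncoa5+/- the log2 difference became -0.46 (H19), -0.24 (Gpc3) and 0.15 (Elovl3) with Zhx2 as a covariate, and -0.50 (H19) without the livers low in Zhx2. For Tip30+/- the limma log2 difference of Elovl3 was 1.81, although its mean was 48.4 against 55.4 in wild type. The Elovl3 difference became -0.20 with DESeq2, -0.22 with edgeR, -0.52 with the Zhx2 covariate and -1.56 without the low livers. For Tip30+/- Gpc3 became 0.028 without them. For double heterozygotes Elovl3 became -0.038 with an offset of 5, -1.40 with DESeq2, -1.40 with edgeR, -1.01 with the covariate and -2.55 without the low livers. There Gpc3 became 0.71 and 1.02, and Lpl 0.32 and 0.55, with the covariate and without the low livers, and Zhx2 -0.26 without them. Leaving out 1 mouse at a time, signs turned for Ncoa5+/- in Zhx2 (-1.45 to 0.093), H19 (-0.75 to 2.21), Gpc3 (-0.40 to 0.89) and Elovl3 (-1.79 to 0.60). For double heterozygotes they turned in Gpc3 (-0.63 to 0.31), Lpl (-0.63 to 0.025) and Elovl3 (-0.30 to 2.09). Afp for Ncoa5+/- ran from 1.17 to 2.21, the lowest without Ncoa5+/- liver 4. The cause was not tested.

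Of all genes, limma called 85 for Ncoa5+/-, 2 for Tip30+/- and 407 for double heterozygotes. DESeq2 called 257, 43 and 1044, and 1 for the interaction where limma called 0. Without the low livers, which left 2 wild-type and 2 Ncoa5+/- mice, the counts were 29, 6 and 121. How far the smaller number of mice lowered the first and the third was not tested. With the 2 groups alone the counts were 56 for Ncoa5+/- and 107 for double heterozygotes. For these the tag covariate gave 697 and the Zhx2 covariate 253. Leaving out 1 mouse gave 45 to 90, 1 to 8 and 88 to 846. No paired analysis was possible because the labels carry mouse tags and no replicate numbers shared between genotypes. Elovl3 in the low livers rests on 0 or 1 reads, which limits its folds.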
